A study of Rattus norvegicus with 18 samples.

Results

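The genes described here are Nfe2l2, which encodes the transcription factor Nrf2, and 6 genes of antioxidant defence, Hmox1, Nqo1, Gclc, Sod1, Sod2 and Cat. They were chosen by Ensembl identifier, 8 identifiers in all, each with the chromosome its gene should lie on. The deposited table holds no gene symbols, so that chromosome was the check made on each pairing of identifier and symbol. The identifier given for Gclm lay on chromosome 5 in place of chromosome 2 and was dropped, which left 7 of the 30562 genes in the table. All 7 passed the filter on low counts, which kept 16593 genes, and all 7 lay on the chromosome that RefSeq gives for the same symbol. Gene spans differed most for Hmox1, with 6836 bases in the deposited annotation and 27459 in RefSeq, and the reason was not tested. RNA was sequenced from intestine of wild type Sprague-Dawley rats, an outbred stock, in 3 groups of 6 libraries. Control rats were untreated. Irradiated rats received a single 10 Gy dose of X-rays, a model of radiation enteritis, and the irradiated plus formula group received that dose and then Changbing Formula. The labels name neither the segment of intestine nor sex, age, formula dose or time after irradiation. All 18 free-text descriptions speak of untreated rats, also for the 12 irradiated ones, so the titles and treatment fields gave the groups.

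Nrf2 is held in the cytoplasm by its partner Keap1 and degraded until oxidants or electrophiles modify Keap1. It then enters the nucleus, pairs with a small Maf protein and binds antioxidant response elements near genes such as Nqo1, Hmox1 and Gclc. Much of this control acts on the Nrf2 protein, so the level of its mRNA is not a measure of its activity. Ionizing radiation produces reactive oxygen species, and the intestinal epithelium is among the tissues that it damages most readily.

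Promoter sequence was looked up for Nfe2l2 and Nqo1, because their levels moved together across the libraries, and for Sod2, because it was the only one of the 6 members searched with the core of the antioxidant response element in the window. The RefSeq promoter table (build GRCr8) held 6 of the 7 members, without Hmox1, whose promoter was not searched. Each sequence is the 250 bases before the transcription start, read on the strand of the gene. The Nfe2l2 sequence is chr3:81029000-81029249 (reverse strand), that of Nqo1 is chr19:52220268-52220517 (reverse strand) and that of Sod2 is chr1:50050169-50050418 (reverse strand). Capitals mark the GC box (GGGCGG), the CCAAT box (CCAAT) and the element core (TGACNNNGC), each on either strand.
Nfe2l2: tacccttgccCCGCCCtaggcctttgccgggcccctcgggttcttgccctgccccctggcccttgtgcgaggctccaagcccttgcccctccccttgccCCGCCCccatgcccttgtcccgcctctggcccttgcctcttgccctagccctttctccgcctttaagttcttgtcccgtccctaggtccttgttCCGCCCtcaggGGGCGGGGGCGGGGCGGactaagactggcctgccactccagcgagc
Nqo1: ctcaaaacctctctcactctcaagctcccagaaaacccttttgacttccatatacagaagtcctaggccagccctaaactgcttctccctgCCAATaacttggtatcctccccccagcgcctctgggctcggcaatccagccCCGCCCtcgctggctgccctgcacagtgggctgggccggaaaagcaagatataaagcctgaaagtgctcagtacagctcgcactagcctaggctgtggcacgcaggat
Sod2: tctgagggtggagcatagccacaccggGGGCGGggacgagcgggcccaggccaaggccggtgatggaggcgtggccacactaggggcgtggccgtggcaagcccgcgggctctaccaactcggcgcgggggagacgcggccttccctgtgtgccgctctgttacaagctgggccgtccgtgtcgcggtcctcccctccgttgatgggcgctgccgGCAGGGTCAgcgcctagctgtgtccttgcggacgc
The Nfe2l2 window held 6 GC boxes, the last pair of which share a base, and no CCAAT box, and the Nqo1 window held 1 of each. The element core was found once among these 6 members, as GCAGGGTCA in Sod2, which reads as the core on the opposite strand. Of 33469 rat promoters of the same length, 10.1% held the core, 30.5% the GC box and 34% the CCAAT box. A match is a description of letters and not a site, and elements further from the start were not searched.

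Library totals lay between 33598572 and 48398184 counts, and genes of the mitochondrial chromosome took between 5.77% and 39.7% of them. Control 2 and irradiated 4 stood apart on the first principal component (40.2% of the variance), at 176 and 216, while the other 16 libraries lay between -52.9 and 34.2. Irradiated 4 had the lowest level of Nfe2l2, Nqo1 and Gclc among the 18 libraries, and control 2 had the lowest level of Sod2. Values without both libraries are therefore given for each gene, though not for every comparison. Markers of cell types could not be examined for want of symbols, so the labelled tissue was not checked. In a bulk sample, fewer cells of a type and less RNA per cell cannot be told apart.

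Levels are given as CPM, counts relative to the size of the library, here after TMM scaling. Divided by exon length, they could also be compared roughly between genes. The length used sums all annotated exons of a gene and not those of the transcripts present. Levels per kb, their order and their ratios therefore depend on the annotation. Over the 18 libraries Nfe2l2 averaged 61.6 ± 30.2 CPM per kb, Sod1 56.0 ± 11.6, Gclc 47.9 ± 21.4, Nqo1 46.8 ± 34.2, Cat 46.4 ± 22.9, Sod2 37.7 ± 6.84 and Hmox1 8.44 ± 4.45 CPM per kb (SD, n = 18). Neighbours in this order from Nfe2l2 down to Cat differed by less than the SD of either, and Nfe2l2 was above Sod1 in 9 of 18 libraries. Cat and Sod2 differed by more than the SD of Sod2 but less than that of Cat, and Cat was above Sod2 in 11 of 18 libraries. Hmox1 was below Sod2 in all 18 libraries, by more than the SD of either. Of the 16593 tested genes, 94.7% had a lower level per kb than Nfe2l2, 90.7% a lower level than Sod2, and 63.2% a lower level than Hmox1.

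No member passed the test between any groups. Of 7 members, 0 passed in irradiated against control, 0 in irradiated plus formula against irradiated and 0 in irradiated plus formula against control (edgeR quasi-likelihood test, adjusted p below 0.05 over all genes tested). The same test called 0%, 0% and 0.0121% of the 16593 genes. At an unadjusted p below 0.05 it also gave 0 members in each comparison, beside 1.93%, 5.59% and 5.71% of all genes. The first of these shares turned on control 2: without it 12.7% of genes, and still 0 members, had an unadjusted p below 0.05 in irradiated against control. In limma-voom with quality weights that share was 11% and took in 1 member, Hmox1. DESeq2 and limma-voom with sample quality weights called 0 members too. No member had groups without overlap, a pattern that 0.00603%, 0.187% and 0.832% of all genes showed. Beside the shares called and the shares without overlap, 0 of 7 members is near the background in each comparison.

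**Figure D1:**
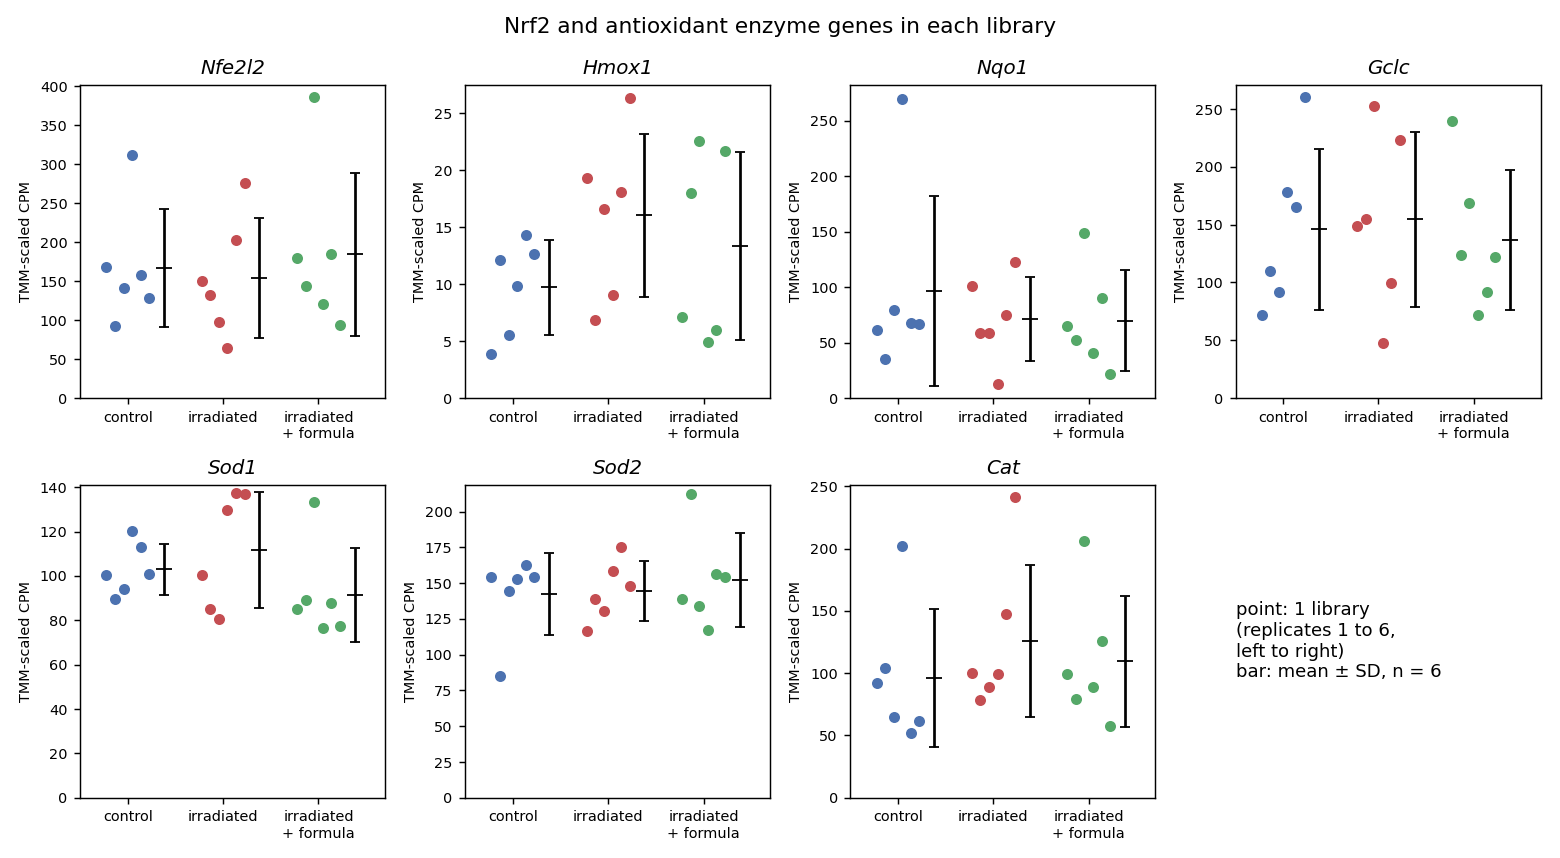
TMM-scaled CPM (y axis, linear, from 0) of the 7 genes in every library by group (x axis), with 1 point per library and the mean ± SD (n = 6) beside each group. The groups overlap for all 7 genes, and the high points of control 4, irradiated 6 and irradiated plus formula 3 recur in Nfe2l2, Nqo1 and Cat.

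Nfe2l2 (ENSRNOG00000001548; chromosome 3, 60594242 to 60621737, reverse strand, mRatBN7.2) encodes Nrf2 itself. Its level in control libraries ran from 92.5 CPM in control 2 to 311 CPM in control 4, with a median of 149 CPM. Irradiated libraries ran from 63.6 CPM in irradiated 4 to 276 CPM in irradiated 6, with a median of 141 CPM. With the formula the lowest was 93.2 CPM, the median 162 CPM and the highest 385 CPM, in irradiated plus formula 3. The ranges overlapped widely, and control 4 and irradiated plus formula 3 lay well above the rest of their groups. Means were 166 ± 75.7, 154 ± 76.4 and 184 ± 104 CPM in control, irradiated and irradiated plus formula libraries (SD, n = 6). Irradiated against control, the log2 fold change was -0.11 (SE 0.38, edgeR adjusted p = 0.998). Between irradiated plus formula and irradiated it was 0.26 (SE 0.38, edgeR adjusted p = 0.868). Single libraries turned these signs: the first value was 0.16 without control 4 and 0.05 without irradiated 4, and the second was -0.09 without irradiated plus formula 3. Without both control 2 and irradiated 4 they were -0.03 and 0.08.

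Nqo1 (ENSRNOG00000012772; chromosome 19, 35295573 to 35310557, reverse strand), a quinone reductase and a standard Nrf2 target, varied more between libraries than any other member. Control 4 had 269 CPM, while the other control libraries lay between 35.5 and 79.6 CPM, with a group median of 67.0 CPM. Irradiated libraries ran from 13.03 CPM in irradiated 4 to 123 CPM in irradiated 6, with a median of 66.7 CPM. Those with the formula ran from 21.97 to 149 CPM, with a median of 58.3 CPM and the highest value in irradiated plus formula 3. The control mean of 96.7 ± 85.8 CPM (SD, n = 6) rested on control 4. Irradiated against control gave a log2 fold change of -0.44 (SE 0.54, edgeR adjusted p = 0.998), which was 0.20 without control 4. Irradiated plus formula against control gave -0.47 (SE 0.54, edgeR adjusted p = 0.908), which was 0.17 without control 4. Irradiated plus formula against irradiated gave -0.03 (SE 0.54, edgeR adjusted p = 0.989), which moved between -0.40 and 0.19 as single libraries were left out. Without control 2 and irradiated 4 these 3 values were -0.35, -0.62 and -0.27.

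Hmox1 (ENSRNOG00000014117; chromosome 19, 13467244 to 13474079, forward strand) encodes heme oxygenase 1, which breaks down heme and is induced by oxidants and by heme. It had the largest fitted difference of the 7 genes between irradiated and control libraries. Control libraries lay between 3.90 and 14.3 CPM, with a median of 10.97 CPM. Irradiated libraries lay between 6.82 and 26.4 CPM, with a median of 17.3 CPM, and 4 of the 6 were above every control library. The remaining pair, irradiated 2 and irradiated 4, lay within the control range. With the formula the libraries split into 3 with 17.99 to 22.5 CPM and 3 with 4.92 to 7.16 CPM, so that their SD of 8.25 CPM was 61.7% of their mean of 13.4 CPM. The log2 fold change of irradiated against control was 0.72 (SE 0.44, unadjusted p = 0.120, edgeR adjusted p = 0.998), with a 95% interval from -0.21 to 1.65. Limma-voom with quality weights gave 1.40 (SE 0.44, unadjusted p = 0.0049), and this also did not pass (limma-voom adjusted p = 0.434). Without control 2 and irradiated 4, edgeR gave 0.96 (adjusted p = 0.638). Over all alternatives tried the value lay between 0.52 and 1.40, with adjusted p between 0.434 and 1. The formula group stood at a log2 fold change of -0.26 (SE 0.44, edgeR adjusted p = 0.883) against irradiated libraries. In limma-voom with quality weights this value was -0.94 (unadjusted p = 0.0395), which also did not pass (limma-voom adjusted p = 0.884). Leaving out control 2 and irradiated 4 gave -0.41 in edgeR. Against control libraries the formula group stood at 0.46 (SE 0.44, edgeR adjusted p = 0.896).

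Gclc (ENSRNOG00000006302; chromosome 8, 78630127 to 78668544, forward strand) encodes the catalytic subunit of glutamate-cysteine ligase, which carries out the rate-limiting step of glutathione synthesis. Control libraries ran from 71.6 to 260 CPM with a median of 138 CPM, irradiated libraries from 47.9 to 252 CPM with a median of 152 CPM, and those with the formula from 71.9 to 240 CPM with a median of 123 CPM. The highest libraries, control 6, irradiated 3 and irradiated plus formula 1, were not those that were highest for Nfe2l2. For Gclc the log2 fold change was 0.08 (SE 0.39, edgeR adjusted p = 0.998) for irradiated against control and -0.18 (SE 0.39, edgeR adjusted p = 0.909) for irradiated plus formula against irradiated. Without irradiated 3 these values were -0.12 and 0.02. The first was also below 0 without control 1 (-0.06), control 3 (-0.02) or irradiated 6 (-0.05). Without control 2 and irradiated 4 both moved away from 0, to 0.25 and -0.39, with edgeR adjusted p of 0.834 and 0.999.

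The superoxide dismutases, which turn superoxide into hydrogen peroxide, were the steadiest members. Sod1 (ENSRNOG00000002115; chromosome 11, 29456558 to 29462249, forward strand) encodes the copper-zinc enzyme of the cytosol, and Sod2 (ENSRNOG00000019048; chromosome 1, 47636528 to 47645189, reverse strand) the manganese enzyme of mitochondria. Sod1 lay between 89.5 and 120 CPM in control libraries, with a median of 101 CPM. In irradiated libraries it lay between 80.8 and 137 CPM, with a median of 115 CPM. Irradiated 4, 5 and 6 were above every control library, and irradiated 2 and 3 were below every control library. With the formula Sod1 lay between 76.7 and 133 CPM, with a median of 86.5 CPM. Of these 6 libraries, 5 were below every control library. The highest of that group, irradiated plus formula 3, was above every control library. Against control, the log2 fold change of Sod1 was 0.12 (SE 0.17, edgeR adjusted p = 0.998) in irradiated libraries. It was -0.17 (SE 0.17, unadjusted p = 0.328, edgeR adjusted p = 0.896) in irradiated plus formula libraries. For Sod1 the log2 fold change of irradiated plus formula against irradiated was -0.29 (SE 0.17, unadjusted p = 0.109, edgeR adjusted p = 0.770), the lowest p of any member in that comparison. It was -0.42 without irradiated plus formula 3 (unadjusted p = 0.015, edgeR adjusted p = 0.822) and -0.36 without irradiated 3 (unadjusted p = 0.0465, edgeR adjusted p = 0.715). Without control 2 and irradiated 4 it was -0.26. Across all alternatives tried for it the adjusted p lay between 0.608 and 0.99993.

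Sod2 lay between 85.2 and 163 CPM in control libraries (median 154 CPM), between 117 and 175 CPM in irradiated ones (median 144 CPM) and between 117 and 213 CPM with the formula (median 147 CPM). Without control 2, which had the 85.2 CPM, no control library was below 144 CPM. Its log2 fold change was 0.02 (SE 0.17, edgeR adjusted p = 0.998) for irradiated against control and 0.07 (SE 0.17, edgeR adjusted p = 0.920) for irradiated plus formula against irradiated. The first was -0.09 without control 2 and the second -0.05 without irradiated plus formula 2, the library with 213 CPM. They were -0.06 and 0.08 without control 2 and irradiated 4. The 95% intervals of both dismutases stayed within 2-fold in all 3 comparisons. For irradiated plus formula against irradiated they covered folds of 0.64 to 1.05 for Sod1 and 0.82 to 1.35 for Sod2. Per kb, the median ratio of Sod2 to Sod1 was 0.697 for control libraries (range 0.447 to 0.721), 0.587 for irradiated ones (range 0.509 to 0.769) and 0.801 with the formula (range 0.472 to 1.12). These ranges overlapped.

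Cat (ENSRNOG00000008364; chromosome 3, 89842399 to 89874478, reverse strand) encodes catalase, the peroxisomal enzyme that breaks down hydrogen peroxide. Control libraries lay between 51.7 and 202 CPM with a median of 78.5 CPM, irradiated libraries between 78.7 and 241 CPM with a median of 99.7 CPM, and those with the formula between 57.4 and 206 CPM with a median of 94.1 CPM. All 6 irradiated libraries were above the control median, the lowest of them barely (78.7 against 78.5 CPM). So were 5 of the 6 libraries with the formula. Only irradiated 6 and irradiated plus formula 3 were above control 4, the highest control library. The log2 fold change of irradiated against control was 0.39 (SE 0.37, edgeR adjusted p = 0.998). It was 0.75 without control 4 (unadjusted p = 0.044, edgeR adjusted p = 0.9997) and 0.10 without irradiated 6. Its level with the formula stood at a log2 fold change of -0.20 (SE 0.37, edgeR adjusted p = 0.892) against irradiated libraries, and at 0.09 without irradiated 6. The values without control 2 and irradiated 4 were 0.52 and -0.28.

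**Figure D2:**
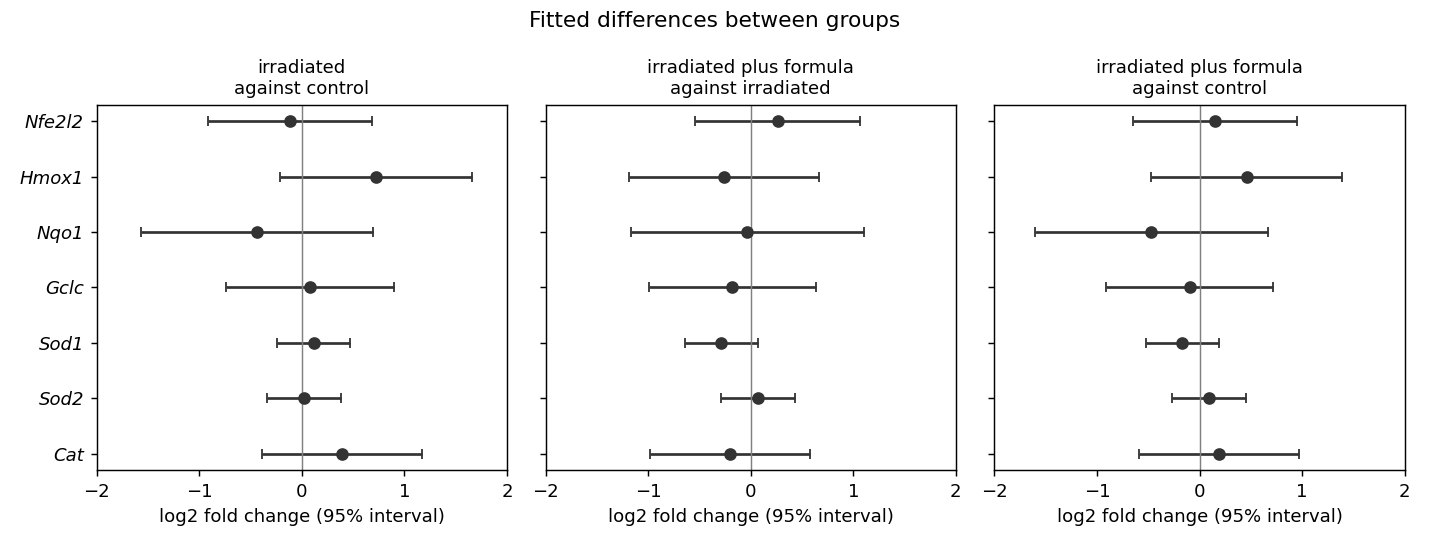
Fitted log2 fold change (x axis) with its 95% interval for each of the 7 genes (y axis) in the 3 comparisons. Every interval includes 0, and those of Sod1 and Sod2 are the narrowest.

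Across the 7 genes the median log2 fold change was 0.08 for irradiated against control, with 5 fitted values above 0 and 2 below, beside a median of 0.01 over all genes tested. For irradiated plus formula against irradiated it was -0.18, with 2 above and 5 below, beside -0.02 over all genes. For irradiated plus formula against control it was 0.10, with 4 above and 3 below, beside -0.07 over all genes, and the edgeR adjusted p of members in this last comparison lay between 0.896 and 0.975. These comparisons share libraries, so their signs are not independent of each other. The standard errors limit what could be seen: the 95% interval lay within 2-fold in either direction for 4, 4 and 5 of the 7 members. Nqo1 and Hmox1 had intervals that reached beyond 2-fold in all 3 comparisons, Cat in irradiated against control and Nfe2l2 in irradiated plus formula against irradiated.

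The spread between libraries of the same group was unequal among the members. The within-group SD of log2 CPM was 1.03 for Nqo1, 0.84 for Hmox1, 0.73 for Gclc, 0.68 for Nfe2l2 and 0.65 for Cat. It was 0.29 for Sod2 and 0.28 for Sod1. The median was 0.62 over all genes tested and 0.43 over the 9565 of them that averaged 10 CPM or more. From the lowest to the highest of the 18 libraries, Nqo1 spanned 20.7-fold, Hmox1 6.75-fold, Nfe2l2 6.06-fold, Gclc 5.44-fold, Cat 4.66-fold, Sod2 2.49-fold and Sod1 1.79-fold.

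**Figure D3:**
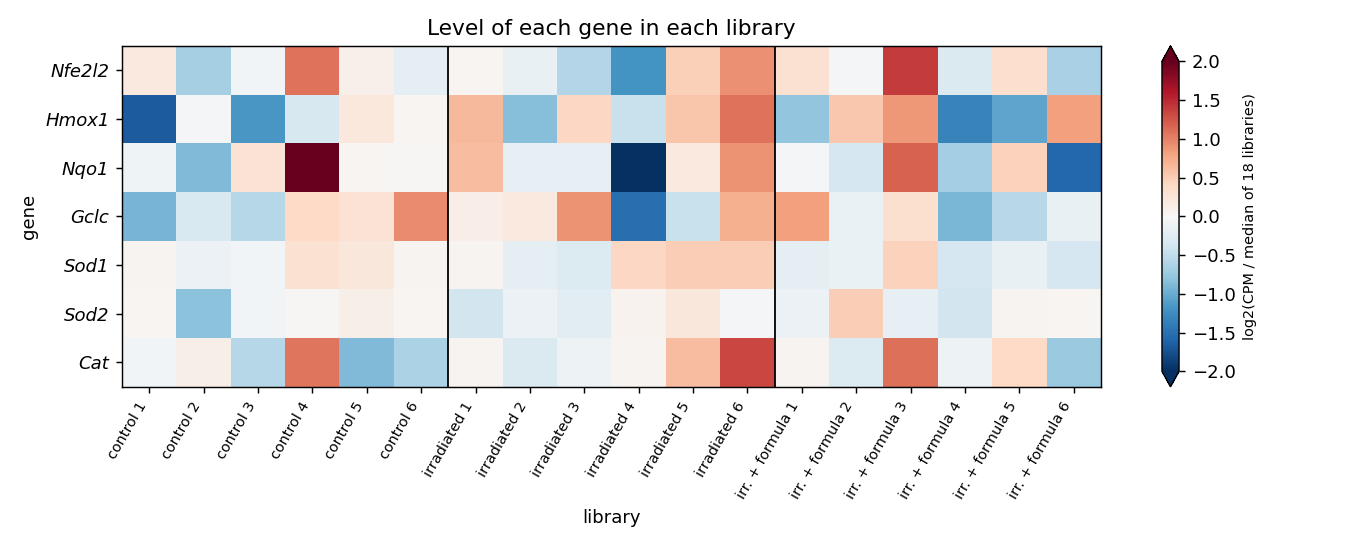
Level of each gene (rows) in each library (columns, black lines between groups) as log2 of its CPM over its median in the 18 libraries, with colours capped at 2 in either direction. The columns of control 4, irradiated 6 and irradiated plus formula 3 are above the median for Nfe2l2, Nqo1 and Cat, and irradiated 4 is lowest for Nfe2l2, Nqo1 and Gclc.

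The variation of Nfe2l2 between libraries was shared with Nqo1. Control 4, irradiated 6 and irradiated plus formula 3 held the 3 highest values of Nfe2l2, of Nqo1 and of Cat. Over 18 libraries the log2 levels of Nfe2l2 and Nqo1 had a Pearson r of 0.89 (permutation p = 1e-05, the smallest that 100000 permutations can give, adjusted p = 0.00021 over 21 pairs of members). Spearman's rho was 0.86 (permutation p = 2e-05, adjusted p = 0.00042). With each group centred on its own mean r was 0.92, and it was 0.95 within control, 0.88 within irradiated and 0.96 within irradiated plus formula libraries. It was 0.86 without irradiated plus formula 3 and irradiated 4, the libraries farthest from the median of Nfe2l2, and 0.84 without control 2 and irradiated 4. Of 9558 genes outside the 7 that averaged 10 CPM or more, 99.4% had a lower Spearman rho with Nfe2l2 than Nqo1 had.

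Over all libraries Cat followed Nfe2l2 less closely, with a Pearson r of 0.69 (permutation p = 0.00167, adjusted p = 0.0175). Its Spearman rho was 0.58 (permutation p = 0.0135, adjusted p = 0.114), so the pair passed the adjustment by Pearson r only. Within control, irradiated and formula-treated libraries r was 0.59, 0.76 and 0.97. Across groups it was 0.73 without irradiated plus formula 3 and irradiated 4. Without control 2 and irradiated 4 it was 0.85, and no lower than the 0.84 of Nqo1. Without control 4, irradiated 6 and irradiated plus formula 3, libraries chosen after their values were seen, it was 0.23 (permutation p = 0.405), while that of Nqo1 was then 0.84 (permutation p = 0.0002). These 3 hold the highest values of all 3 genes, so the range compared is narrower without them. With control 2 and irradiated 4 left out as well, the other 13 libraries gave an r of 0.58 for Cat (permutation p = 0.0361) and 0.68 for Nqo1 (permutation p = 0.0092). The size of the relation with Cat thus depended on which of these libraries were included. No other pair of members passed the adjustment by Pearson r, and by Spearman rho none but Nfe2l2 with Nqo1 did. Hmox1 had an r of 0.18 with Nfe2l2 (permutation p = 0.463, adjusted p = 0.695; Spearman rho 0.21, permutation p = 0.412) and Gclc one of 0.39 (permutation p = 0.114, adjusted p = 0.288; Spearman rho 0.27, permutation p = 0.274). Without control 2 and irradiated 4 the r of Hmox1 was 0.18 and that of Gclc 0.14. Sod1 had an r of 0.51 with Nfe2l2 (permutation p = 0.0318, adjusted p = 0.111; Spearman rho 0.53, permutation p = 0.0257). That r was 0.81 without control 2 and irradiated 4, and 0.30 with scaling by library totals alone. Within control, irradiated and formula-treated libraries the r of Sod1 was 0.86, 0.35 and 0.94.

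**Figure D4:**
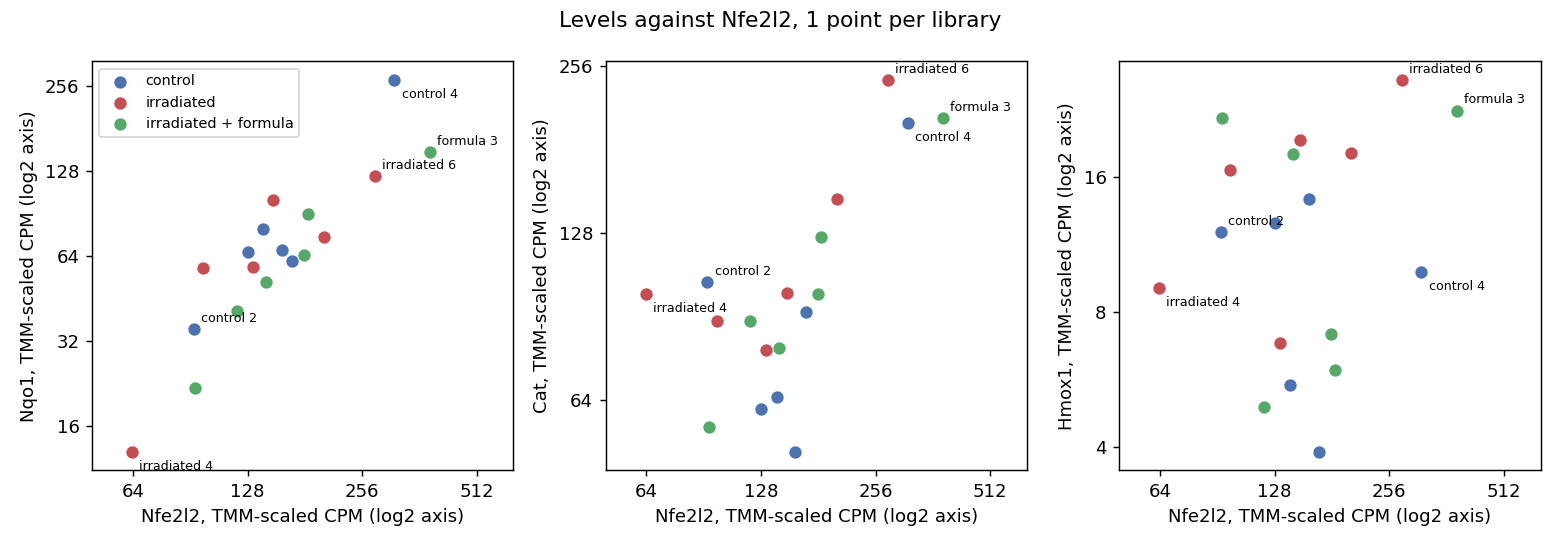
Nqo1, Cat and Hmox1 (y axes) against Nfe2l2 (x axis) in TMM-scaled CPM on log2 axes, with 1 point per library coloured by group. Nqo1 rises along the whole range of Nfe2l2, the Cat points rise less evenly, with irradiated 4 and control 2 above the rest at the low end of Nfe2l2, and the Hmox1 points are scattered.

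The share of mitochondrial counts was examined beside this relation. Control 4 had 22.8%, irradiated 6 had 27.3% and irradiated plus formula 3 had 25.7%, while control 2 had 9.30% and irradiated 4 had 5.77%. Nfe2l2 had a Pearson r of 0.60 with that share (permutation p = 0.00883, adjusted p = 0.124 over 14 relations of members with this share or the library total). Spearman's rho was 0.61 (permutation p = 0.0091, adjusted p = 0.127). Pearson's r was 0.53 without irradiated 5 and irradiated 4, and 0.38 without control 2 and irradiated 4. Nqo1 had an r of 0.46 (permutation p = 0.0576, adjusted p = 0.269; Spearman rho 0.46, permutation p = 0.0562), and 0.11 without control 2 and irradiated 4. Sod2 had an r of 0.49 with the share (permutation p = 0.0458, adjusted p = 0.269), also 0.49 without control 2 and irradiated 4. For Sod1 it was 0.31 (permutation p = 0.212), and 0.59 without these libraries. Hmox1, Cat and Gclc had an r of 0.34, 0.30 and 0.24. No member passed the adjustment. The part of this share in the relation of Nfe2l2 with Nqo1 was not tested. With TMM factors from the table without the mitochondrial chromosome, the r of Nfe2l2 with Nqo1 was 0.89.

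The genes outside the 7 with the pattern most like Nfe2l2 over the 18 libraries were ENSRNOG00000019508 (chromosome 2, 186459444 to 186543571, forward strand), with a Spearman rho of 0.98, and ENSRNOG00000010753 (chromosome 1, 8046430 to 8269084, reverse strand), with 0.96. Their Pearson r was 0.95 and 0.90 and their mean level 24.6 and 32.4 CPM. They were the highest of 9558 genes ranked, of which 50 had a higher rho than Nqo1, and no p is given for a ranking of this kind.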

How the data were processed

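Poly(A)-selected RNA was sequenced, per the labels' protocols. The authors deposited unnormalized counts for each gene, from featureCounts 2.1.1 with build mRatBN7.2 and Ensembl annotation 110, per the file headers. The submitters' processing notes also name FastQC, fastp, STAR and SAMtools. Paired-end mode was set without counting pairs and without strand, per the file headers, so most pairs count as 2: between 66.9% and 74.6% of counts from 1 to below 40 were even. Counting error is therefore larger than the counts imply, and strand does not separate overlapping genes. No exon of the 7 members overlaps another gene of the table. The exon lengths (other values) are those deposited in the same table. Every column of per-sample values was used.

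Groups came from the titles. Counts were tested in R 4.3.3 with edgeR 4.0.16: filterByExpr, TMM, and a quasi-likelihood fit of all 18 libraries without covariates, with p adjusted by Benjamini-Hochberg over 16593 genes. Standard errors were taken as the absolute log2 fold change over the square root of F, and intervals built on them are approximate. Correlations were taken over log2 CPM (prior count 2), with two-sided permutation tests. Alternatives were other scalings and filters, DESeq2 1.42.0, limma-voom with quality weights (limma 3.58.1), fits of 12 libraries, a replicate block, and libraries left out. The procedure was tested on simulated data for irradiated against control. It recovered 20.9% of 2-fold, 71.6% of 4-fold and 84.8% of 8-fold changes given to randomly picked genes, so most 2-fold changes were missed. The counts were drawn independently for each library, with no outlying library and no doubled read pairs. These shares therefore do not describe any single member. No library was a copy of another: over 153 pairs, the lowest median chi-square across genes was 6.38, against 0.910 for the same library with doubled reads. The labels do not state that each library is a separate rat, so p-values measure the spread between libraries.

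The 7 members, the lists and the libraries left out were chosen with earlier results of these data known. All members are named, with the 2 genes of highest Spearman rho with Nfe2l2. Lists of other Nrf2 regulators, Nrf2 targets, antioxidant enzymes and cell type markers could not be run, since 0 identifiers matched the gene table used beside the data.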

Additional observations from a re-analysis of the deposited data

Results flagged for a closer look

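In 6 of 21 checks (7 genes in 3 groups) 1 library lay far from the others of its group by Dixon's criterion on linear CPM. For normally distributed values chance would give about 1.05. Linear CPM can be skewed towards high values, and the check was not run on log2 levels, so the count cannot be set against chance. Control 4 stood above the other control libraries with 311 CPM of Nfe2l2 (the next had 168 CPM), 269 CPM of Nqo1 (the next had 79.6 CPM) and 202 CPM of Cat (the next had 104 CPM). Irradiated plus formula 3 stood above its group with 385 CPM of Nfe2l2 (the next had 184 CPM) and 133 CPM of Sod1 (the next had 89.1 CPM). Control 2 stood below the other control libraries with 85.2 CPM of Sod2, where the next had 144 CPM. These flags are not independent, since 5 of the 6 come from control 4 and irradiated plus formula 3.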

How the results depend on the processing

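No member passed the threshold under any of the 23 alternatives run for each comparison, and the adjusted p of members lay between 0.434 and 1. Of 483 member values under alternatives 448 kept their sign, and of the 35 that did not, 25 came from leaving out 1 library; the cause was not tested. With library totals alone, Sod2 was at -0.0077 for irradiated plus formula against irradiated. With limma-voom and quality weights, Nfe2l2 was at 0.040 and Sod2 at -0.048 for irradiated against control, Sod2 at -0.00023 for irradiated plus formula against irradiated, and Gclc at 0.32 and Sod2 at -0.048 for irradiated plus formula against control. Without control 2 and irradiated 4, Sod2 was at -0.064 for irradiated against control, and without these and irradiated 1 Nfe2l2 was at 0.0032 and Sod2 at -0.012. With the replicate block Gclc was at -0.072 for irradiated against control.

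Leaving out 1 library each, values for irradiated against control ranged from -0.36 to 0.16 for Nfe2l2, -0.66 to 0.20 for Nqo1, -0.12 to 0.33 for Gclc and -0.088 to 0.126 for Sod2. For irradiated plus formula against irradiated they ranged from -0.093 to 0.513 for Nfe2l2, -0.40 to 0.19 for Nqo1, -0.416 to 0.018 for Gclc, -0.046 to 0.138 for Sod2 and -0.482 to 0.090 for Cat. For irradiated plus formula against control they ranged from -0.21 to 0.42 for Nfe2l2, -0.84 to 0.17 for Nqo1, -0.34 to 0.15 for Gclc, -0.023 to 0.161 for Sod2 and -0.093 to 0.546 for Cat. Hmox1 and Sod1 kept their sign in every alternative run.

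Over all genes, irradiated plus formula against control gave 2 calls in edgeR, 47 in DESeq2, 499 in limma-voom with quality weights, 6 with only the 12 libraries, 7 without control 2 and irradiated 4, 7 without these and irradiated 1, 1 with the replicate block, and 2 to 5 with 1 library left out (5 without control 2). Irradiated plus formula against irradiated gave 0 in edgeR and 8 in DESeq2. Between libraries of the same number, deviations from the group means had correlations from -0.51 to 0.61, above 0.1 in 5 of 18 pairs. Pairs of different number were not compared. The replicate block changed no call of a member. The r of Nfe2l2 with Nqo1 lay between 0.68 and 0.91 over the alternatives run, which were chosen after seeing the data. That with Cat lay between 0.58 and 0.85, except for 0.23 without control 4, irradiated 6 and irradiated plus formula 3. The lowest of each range, except for that value, came from leaving out these 3 with control 2 and irradiated 4.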
